A study of Absidia caerulea with 2 samples.

Results

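The most abundant transcripts of Absidia caerulea mycelium were taken as the assembled features with 600 TPM or more in both libraries of the series, 251 of 45338 features in all. TPM is a feature's estimated reads over its effective length, set to a common total for both libraries, so it compares levels between features per length. Features whose cluster differed 2-fold or more between the libraries were to be left out, and this step removed 0 features. A cluster is the group of features that share an identifier up to the final number. The rule used the TPM values and cluster sums, so these are given as a description and were not tested.

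The RSA library came from wild-type mycelia of strain AS3.65 kept for 2 h in 30 ml of potassium phosphate buffer with 170 mg/L of 11-deoxycortisol 21-acetate (RSA), a steroid substrate, dissolved in N,N-dimethylformamide. The mock library came from mycelia of the same strain in the same buffer with N,N-dimethylformamide alone, so both carried the solvent. In both, young germinated mycelia had first grown in potato dextrose broth. Each condition is 1 library of 1 RNA sample, with 8923366 rounded counts for RSA and 8904802 for mock. No spread between cultures can be given, no test between conditions was made, and each interval below is a 95% interval that covers counting error only.

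A few kinds of messenger RNA usually dominate growing fungal hyphae, among them those for ribosomal proteins, translation factors, histones and enzymes of central carbon metabolism. Ribosomal and mitochondrial RNA can also be present in an RNA-seq library. The deposited tables pair no feature with a gene name or a sequence, so which of the 251 features belong to such groups was not analysed here, no sequence is printed, and the labelled tissue was not checked against marker genes.

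The 251 features are 0.554% of all features and held 44.5% of the RSA TPM sum and 42.0% of the mock TPM sum. They took a smaller share of the counts, 23.4% in RSA (95% Clopper-Pearson interval 23.3% to 23.4%) and 24.3% in mock (24.2% to 24.3%). A feature's TPM had a median of 1204 in RSA (607 to 13330) and of 1141 in mock (607 to 11870). The 10 features with the highest geometric mean TPM held 8.07% of the RSA TPM sum and 7.43% of the mock sum, and the first 100 held 30.0% of the RSA sum and 28.0% of the mock sum. All 251 passed a minimum of 20 rounded counts, summed over RSA and mock.

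The highest levels belonged to 2 features alone in their clusters. TRINITY_DN16982_c0_g1, of 573 nucleotides (nt), had 13330 TPM in RSA and 11870 TPM in mock, from 57032 counts in RSA and 54757 in mock. TRINITY_DN30127_c5_g1, of 806 nt, had 12038 TPM in RSA and 11809 TPM in mock, from 91838 counts in RSA and 96453 in mock. These features ranked first and second by TPM in both libraries. The feature at rank 3 in both was of another kind. TRINITY_DN13129_c2_g10, of 208 nt, had 11937 TPM in RSA and 11300 TPM in mock, from 339 counts in RSA and 440 in mock. Its level therefore rested on far fewer reads, and its counting interval reached from 10706 to 13286 TPM in RSA and from 10276 to 12415 TPM in mock.

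The next 2 features were below 400 nt and had many more counts. TRINITY_DN13752_c0_g1, alone in its cluster and 386 nt long, had 8028 TPM in RSA and 5827 TPM in mock, from 12858 counts in RSA and 10323 in mock. Its ratio of RSA over mock on counts scaled with TMM, a method that sets library sizes so that most features do not differ, was 1.33 (1.29 to 1.36). TRINITY_DN1752_c1_g5, of 383 nt, had 6221 TPM in RSA and 6480 TPM in mock and was the only 1 of the first 10 with the lower TPM in RSA. The other 5 of the first 10 were 215 to 251 nt long and had 220 to 998 counts per library. TRINITY_DN13524_c1_g3 had 6347 TPM in RSA and 5942 TPM in mock, and TRINITY_DN13524_c1_g37, of the same cluster, had 5733 TPM in RSA and 5581 TPM in mock. TRINITY_DN13129_c2_g7 had 5984 TPM in RSA and 5268 TPM in mock, and its cluster mate TRINITY_DN13129_c2_g34 had 5604 TPM in RSA and 5067 TPM in mock. TRINITY_DN23795_c0_g1, alone in its cluster, had 5449 TPM in RSA and 5166 TPM in mock. Of the first 10, the counting intervals of the libraries did not overlap for 4, which are the 2 leading features, TRINITY_DN13752_c0_g1 and TRINITY_DN1752_c1_g5. These 4 had the most counts of the 10, and many counts make the intervals narrow. The share of all features without overlap was not computed, so this count is not read as a difference between RSA and mock.

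**Figure D1:**
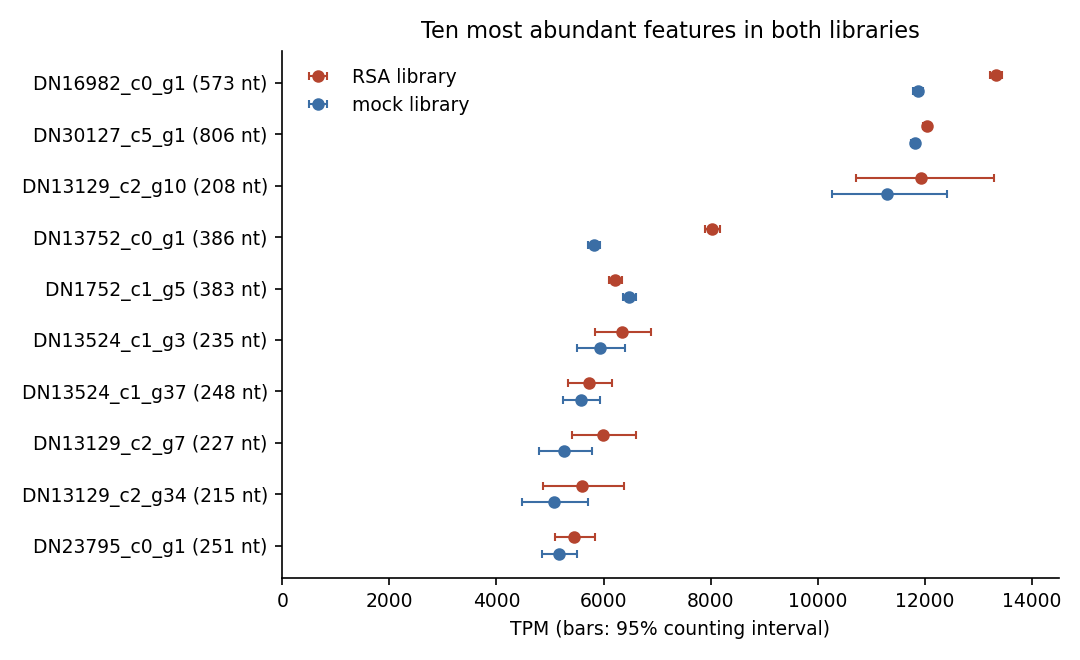
TPM (x axis, linear) of the 10 features with the highest geometric mean TPM, named on the y axis with their lengths, in the RSA library (red) and the mock library (blue). Bars are 95% counting intervals. They are wide for the features of 208 to 251 nt, whose levels rest on 220 to 998 counts, and within a few symbols' width for the others.

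Order was much alike in both libraries. The 20 features with the highest TPM in each shared 18, and the 50 highest shared 48. Every shared feature was among the 251, which the rule fixed, since the 50 highest of each library all lay above 600 TPM. Across the 251 features log2(TPM + 1) gave Pearson's r = 0.973 and TPM gave Spearman's rho = 0.956. The points share the same 2 libraries and the rule limits their range, so these values are a description only.

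Many of the features were short. Their length had a median of 398 nt (201 to 6272 nt) in mock, against 1305 nt for the 14962 features of the whole table that reached 20 counts. Only 15.9% of them (40) reached 1000 nt, against 65.6% of those 14962. Effective length, the number of positions at which a fragment could start, is what TPM divides by. In single-transcript features with over 1000 nt of effective length it was shorter than the length by 275 nt in RSA and 271 nt in mock, so a feature near that length keeps very few positions. Effective length had a median of 123 nt in RSA (1.38 to 5997 nt) and of 128 nt in mock (1.81 to 6001 nt). Because length enters TPM, these lengths are not independent of how the features were chosen.

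The level that 1 count gives therefore differed widely between features. In the shortest of them, TRINITY_DN13504_c3_g18 of 201 nt, 1 count was worth 50.3 TPM in RSA and 36.3 TPM in mock. It had 803 TPM in RSA and 797 TPM in mock from 16 counts in RSA and 22 in mock, with counting intervals of 460 to 1306 TPM in RSA and 500 to 1207 TPM in mock. In the longest, TRINITY_DN13503_c14_g21 of 6272 nt, 1 count was worth 0.0116 TPM in RSA and 0.0109 TPM in mock. Of the 251 features, 28 had under 100 counts in RSA and 20 in mock, and 50 had at least 10000 counts in RSA and 52 in mock.

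**Figure D2:**
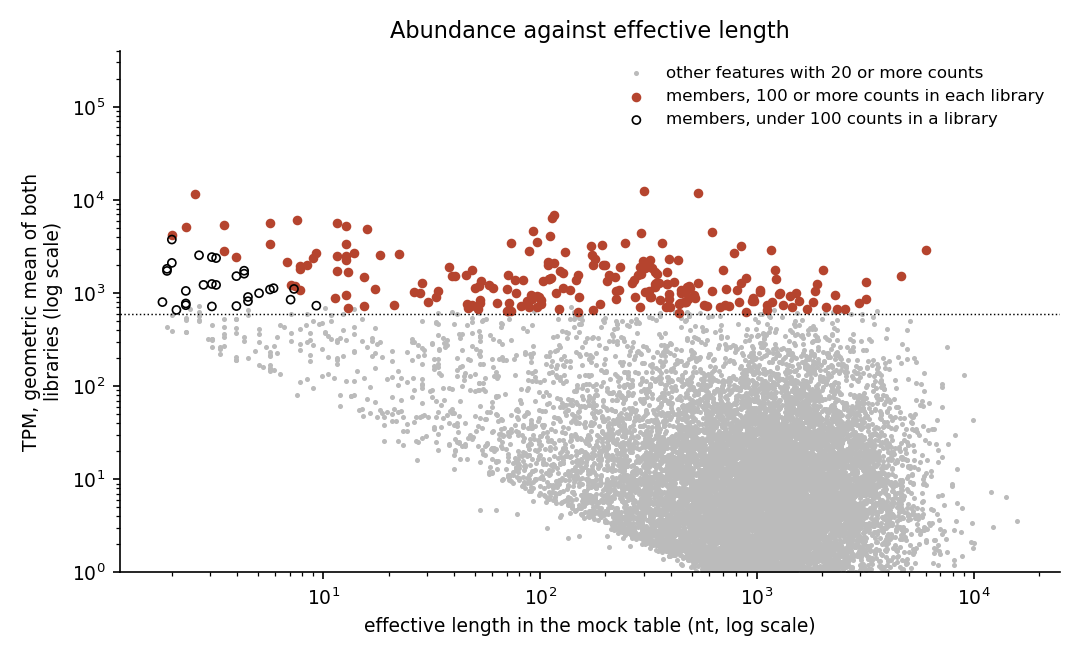
Geometric mean TPM of both libraries (y axis, log scale) against effective length in the mock table (x axis, log scale). Red points are members of the set with at least 100 counts in each library, open circles are members with fewer in a library, grey points are other features with at least 20 counts and 1 TPM, and the dotted line marks 600 TPM. The open circles lie at the left, at effective lengths of under 20 nt.

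Grouped by effective length in mock, with limits chosen after the values were seen, the shortest features held the most TPM and the fewest counts. The 63 features under 20 nt held 14.7% of the RSA TPM sum and 13.9% of the mock sum, with 0.137% of the RSA counts and 0.168% of the mock counts. The 46 features of 20 to under 100 nt held 6.06% of TPM in RSA and 5.85% in mock. The 49 features of 100 to under 300 nt held 9.71% of TPM in RSA and 8.90% in mock. The 93 features of 300 nt or more held 14.0% of TPM in RSA and 13.3% in mock, with 19.98% of the RSA counts and 20.8% of the mock counts. Of the 50 features with the highest geometric mean TPM, 24 were in the shortest class.

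**Figure D3:**
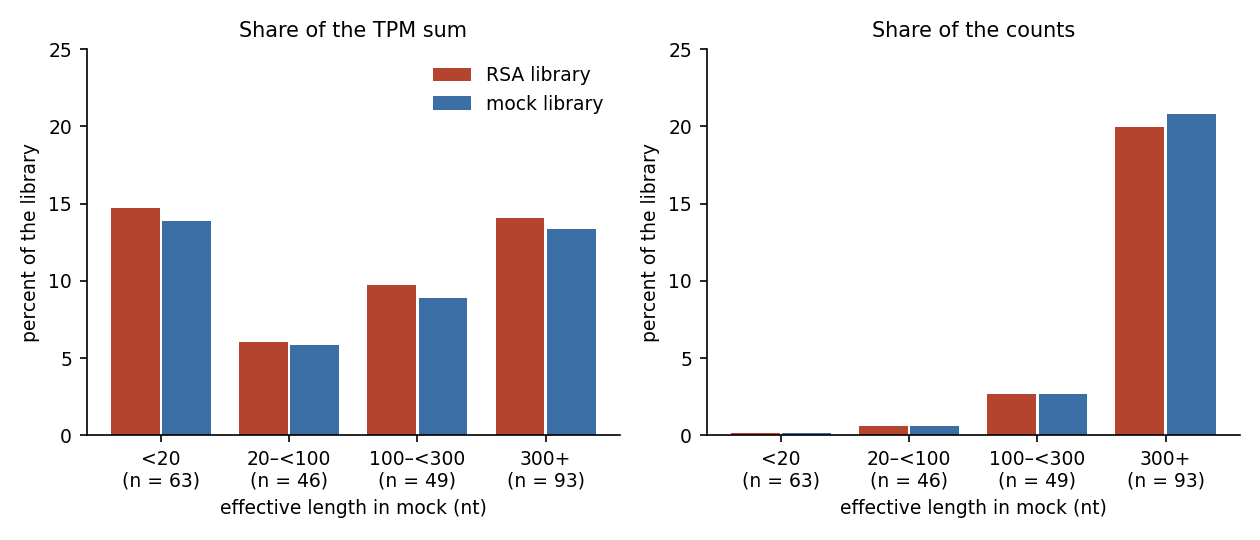
Percent of the TPM sum (left) and of the counts (right) held by the 251 features, by effective length in mock, with RSA in red and mock in blue and the number of features under each class. The class under 20 nt has 14.7% of TPM and 0.137% of counts in RSA, and the class of 300 nt or more has 14.0% and 19.98%.

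Dividing counts by full length instead, scaled to the same sum, gave 243 features at 600 or more in both libraries. They shared 144 features with the 251, which is 57.4% of the 251 and 59.3% of the 243. All 93 features of 300 nt or more of effective length were among the 144, against 0 of the 63 under 20 nt. The full-length value follows from TPM and the ratio of effective length to length, which is higher for longer features. That the longest class stayed was thus fixed by arithmetic and is no separate support for its levels. TRINITY_DN13129_c2_g10 had 260 in RSA and 333 in mock on this full-length scale, and TRINITY_DN16982_c0_g1 had 15911 in RSA and 15068 in mock. The leading features changed places on it, since TRINITY_DN30127_c5_g1 had 18215 in RSA and 18870 in mock.

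The features fell into 142 clusters of 34166. Of the 251, 64 were alone in their cluster, 25.5%, against 49.0% of the features with at least 20 counts. Another 147 were in 38 clusters that held at least 2 of them, and 2 clusters held 47. TRINITY_DN13129_c2, with 63 features, held 27 of the 251. These 27 summed to 84807 TPM in RSA and 77844 TPM in mock, which is 8.48% of the RSA sum and 7.78% of the mock sum, whereas the whole cluster took 0.566% of the RSA counts and 0.574% of the mock counts. TRINITY_DN13524_c1, with 47 features, held 20 of the 251, and they summed to 42704 TPM in RSA and 42075 TPM in mock. In both clusters most of these features were in the class under 20 nt, 22 of 27 and 14 of 20.

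In TRINITY_DN13129_c2 the features with the most reads were not those with the highest TPM. TRINITY_DN13129_c2_g24, of 2503 nt, was singled out after its values were seen. It had 21550 counts in RSA and 19928 in mock, the most in its cluster, but 673 TPM in RSA and 585 TPM in mock, and so missed the limit of 600 TPM. TRINITY_DN13129_c2_g13, of 746 nt and one of the 251, had 8139 counts in RSA and 8217 in mock, for 1203 TPM in RSA and 1133 TPM in mock. The feature of 208 nt at rank 3 overall held 0.671% of the cluster's RSA counts. Whether the short features are fragments of the longer ones was not tested, since no sequences were used here.

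**Figure D4:**
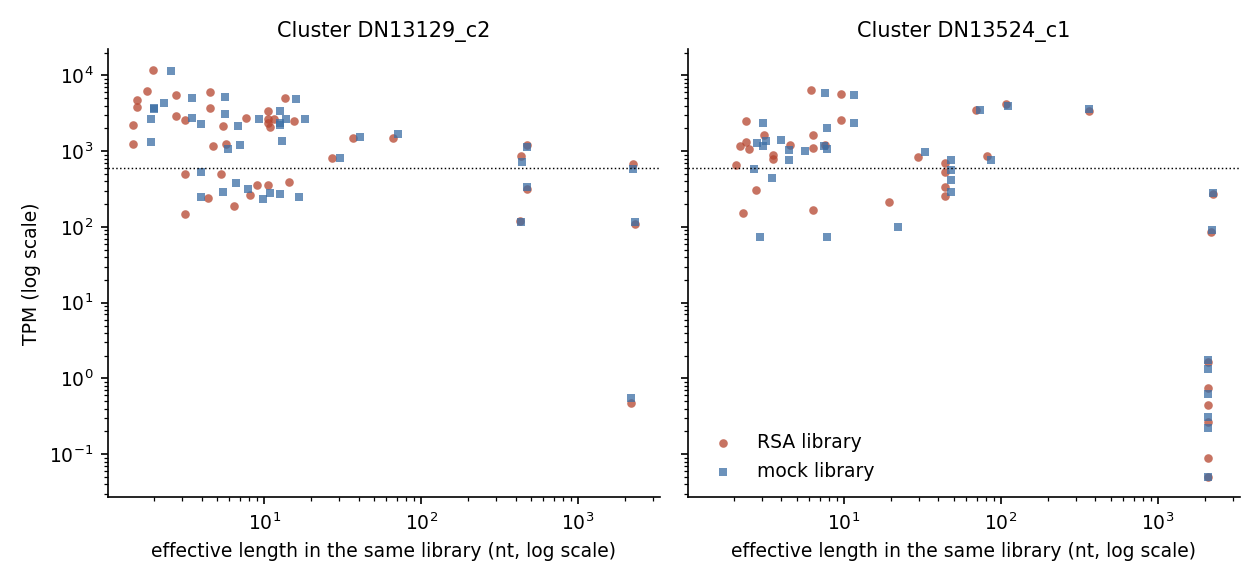
TPM (y axis, log scale) against effective length in the same library (x axis, log scale) for the features of 2 clusters with TPM above 0 in both libraries, with RSA as red circles and mock as blue squares and the limit of 600 TPM dotted. In both panels the features above the line lie mostly at effective lengths of under 20 nt, and the longest features lie below it or beside it.

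Features alone in their cluster were longer. The 64 had a median length of 878 nt in RSA and 875 nt in mock, and 29 of them reached 1000 nt. They held 12.0% of the RSA TPM sum and 11.0% of the mock sum, with 13.6% of the RSA counts and 13.5% of the mock counts. Among the features with at least 200 nt of effective length in both libraries, 109 in all, the next after the 2 leading ones were TRINITY_DN30166_c0_g1 and TRINITY_DN30144_c1_g1, named after their values were seen. TRINITY_DN30166_c0_g1, of 891 nt, had 4758 TPM in RSA and 4288 TPM in mock, and TRINITY_DN30144_c1_g1, of 563 nt, had 4709 TPM in RSA and 4121 TPM in mock. Both were alone in their clusters.

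A count that is not whole shows that RSEM, the program behind the tables, divided reads between features. A whole count does not show the reverse, since divided reads can also sum to a whole number. Counts were whole within 0.005 for 41.0% of the 251 in RSA (34.9% to 47.4%) and 39.8% in mock (33.7% to 46.2%). Over the 14962 features the share was 61.7% in RSA and 61.2% in mock. Among features with cluster mates it was 25.1% of the 251 in RSA and 23.5% in mock, against 25.6% in RSA and 24.5% in mock of all such features with at least 20 counts. Among features alone in their cluster it was 56 of 64, 87.5% (76.9% to 94.4%), in RSA and the same in mock, against 99.3% in RSA and 99.2% in mock of all such features. The shares for features with mates were thus close to those of the whole table, and those for features alone were lower. Depth was unlike here, since the 251 had a median of 3368 counts in RSA and 3282 in mock. Over all features with at least 1000 counts the share was 61.7% in RSA and 61.6% in mock. Features alone in their cluster were not compared at like depth, so their lower share is not read as a trait of the 251. Cluster mates are not independent of each other, so these intervals may be narrower than they should be.

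The number of transcripts listed per feature was also counted. Of the 251 features 86 had 2 or more, 34.3% (28.4% to 40.5%), against 26.9% of the 14962 features and 29.0% of the 2789 with at least 1000 counts. The share of 29.0% lay within the interval of the 251, so several transcripts are not read as a trait of the 251. The most was 12 transcripts. The share was 47.7% among the 109 features with at least 200 nt of effective length, and that of all features so long was not computed. A change in the division of reads between transcripts can show in a feature's average length. Average length was compared in the 85 of the 251 that had several transcripts and reached 100 counts in RSA and in mock. It was 10% or more apart in 0 of the 85, against 126 of 2259 in the whole table, 5.58%. The differences of RSA from mock reached from -3.05% to 2.86%, and 74 of the 85 were within 1%, against 1703 of 2259 in the whole table. Transcripts of like length cannot be told apart in this measure. The 2259 features needed only 100 counts in each library, whereas the 251 had a median of 3368 counts in RSA and 3282 in mock. Features of like depth were not compared on average length, so the smaller differences are not read as a trait of the 251.

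The scaled ratio of RSA over mock on counts had a median of 0.987 over the 251 features (0.359 to 1.60), against 1.02 over all 14962. It lay above 1 for 111 of the 251 features and below 1 for 140, against 7941 above and 7021 below over all 14962. The other scalings of the counts also gave the 251 a median below 1, of 0.926 to 0.985. The median was above 1 for the ratio of TPM plus 1, at 1.037, which differs both in scaling and in the division by each library's effective length. With TMM kept, it was also above 1 for counts summed over clusters, at 1.024, and for the features with at least 200 nt of effective length, at 1.027. Features were counted as higher or lower where the ratio was 1.5-fold or more and its interval excluded equality. By this rule 5 of the 251 were higher and 5 were lower, where 7.76% of the 14962 features were higher and 6.63% were lower. With library totals in place of TMM, 1 of the 251 was higher and 9 were lower. The features were chosen by a TPM limit in both of these libraries, and the limit on cluster sums of the same contrast removed 0 of them. Nothing is therefore read from these counts. Among features with at least 1000 counts 4.88% were higher and 1.04% lower.

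The 5 higher features had at least 1784 counts in each library. TRINITY_DN13544_c0_g1, of 4878 nt and alone in its cluster, had 129035 counts in RSA and 85704 in mock, for 1950 TPM in RSA and 1219 TPM in mock. Its scaled ratio was 1.60 (1.59 to 1.62), and it took 1.45% of the RSA counts and 0.962% of the mock counts. TRINITY_DN7543_c0_g1, of 379 nt, had 2756 counts in RSA and 1841 in mock, for 1832 TPM in RSA and 1104 TPM in mock, a ratio of 1.59 (1.502 to 1.69). Its only cluster mate had the same counts, length and TPM in both libraries to every deposited digit and was counted apart from it. The mate therefore adds no separate value to this comparison. The other 2 higher features were 407 and 730 nt long and had ratios of 1.53.

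The 5 lower features had 23 to 40 counts in RSA and 44 to 77 in mock, and all were 202 to 221 nt long. TRINITY_DN13129_c2_g28, of 202 nt, had 26 counts in RSA and 77 in mock, for 1250 TPM in RSA and 2652 TPM in mock, a ratio of 0.359 (0.221 to 0.567). TRINITY_DN13504_c3_g32, of 206 nt, had the next lowest ratio, 0.549 (0.281 to 1.04), from 16 counts in RSA and 31 in mock. Its interval included equality, so it was not among the 5. No feature with at least 200 nt of effective length was lower by the rule, and 2 were higher.

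The features with the most reads differed in direction. TRINITY_DN13503_c14_g21, the longest of the 251, had the most counts of any feature in both libraries, 217795 in RSA and 298643 in mock. These were 2.44% of the RSA library and 3.35% of the mock library, for 2526 TPM in RSA and 3261 TPM in mock. Its ratio was 0.776 (0.772 to 0.781), the lowest among features with at least 200 nt of effective length and short of the 1.5-fold rule. It held 96.9% of its cluster's counts in RSA and 97.0% in mock. TRINITY_DN13544_c0_g1, described above with the higher features, had rank 2 by counts in RSA and rank 3 in mock.

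Counts and TPM gave different directions for the short features. In the class under 20 nt the count ratio had a median of 0.857 and was above 1 for 7 of 63, whereas the ratio of TPM had a median of 1.05 and TPM was higher in RSA for 44 of 63. For 37 of the 63 the scaled count was lower and the TPM higher in RSA. The effective length of this class in RSA was 0.801 of that in mock at the median, and all 165 single-transcript features of the 251 had the shorter effective length in RSA. TPM divides by that length, so by arithmetic a shorter one raises it at the same count. TPM and TMM also scale the libraries differently.

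The gap between both measures closed with length. At 20 to under 100 nt the median ratios were 0.943 for counts and 1.01 for TPM, with an effective length in RSA of 0.927 of that in mock. At 100 to under 300 nt they were 1.04 for counts and 1.06 for TPM, with an effective length in RSA of 0.968 of that in mock. At 300 nt or more they were 1.02 for counts and 1.03 for TPM, with an effective length in RSA of 0.994 of that in mock. Other features with at least 20 counts had median count ratios of 0.798, 1.002, 1.06 and 1.02 from the shortest class to the longest, and median TPM ratios of 0.998, 1.11, 1.09 and 1.02. The low count ratio of the shortest class was thus also present outside the 251 features, but there TPM was higher in RSA for 72 of 150 features, and the scaled count was lower with a higher TPM for 27 of 150. The higher TPM in RSA of most of the 63 was therefore not seen in the other features under 20 nt. Depth was unlike, with a median of 105 counts in RSA and 132 in mock for the 63. The 150 others had 19.5 in RSA and 24 in mock. At 20 to under 100 nt TPM was higher in RSA for 24 of 46 members and for 260 of 435 other features. Of the 63, 22 lay in TRINITY_DN13129_c2 and 14 in TRINITY_DN13524_c1, and most in each had the higher TPM in RSA. Cluster mates are not independent of each other, and the members outside these clusters were not compared apart. The higher TPM is therefore not read as a trait of all 63. The 63 were also chosen by their TPM, so the difference from the other short features was not tested. Whether a difference in fragment length between the libraries has a part in it was not tested.

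**Figure D5:**
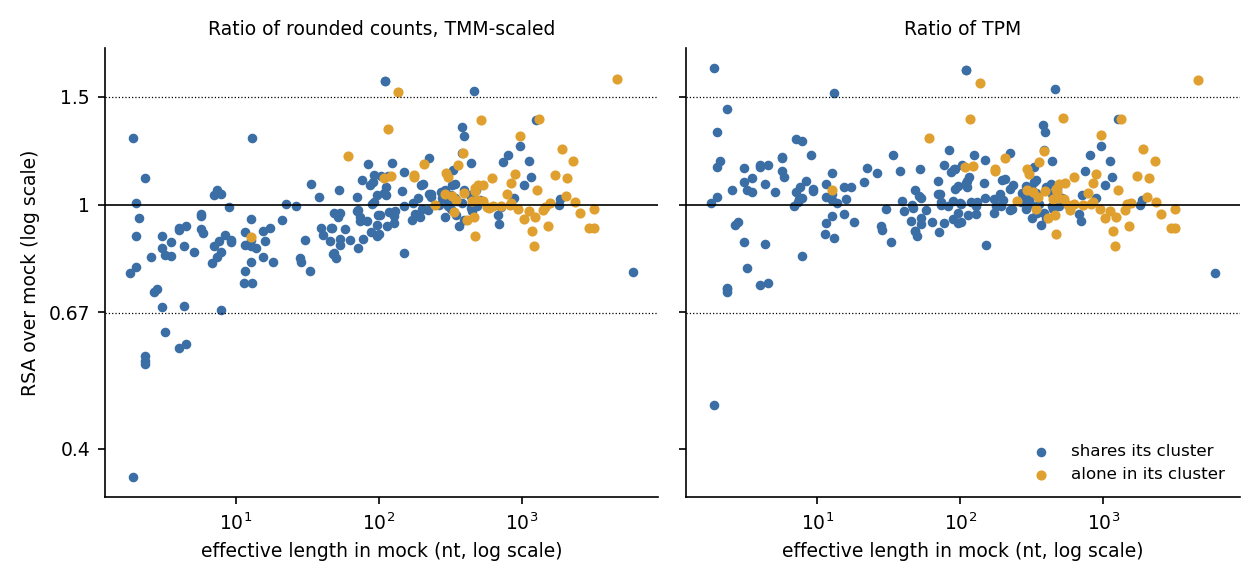
Ratio of RSA over mock (y axis, log scale) for the 251 features against effective length in mock (x axis, log scale), from TMM-scaled counts (left) and from TPM (right), with features alone in their cluster in orange and others in blue. Dotted lines mark 1.5-fold. At under 20 nt most points of the left panel lie below 1, with a median of 0.857, and those of the right panel lie around 1.05.

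Counts were also summed over clusters. The 142 clusters had a median scaled ratio of 1.02, with 90 above 1 and 52 below, and reached from 0.777 to 1.60. The split around 1 was not computed over all clusters, so nothing is read from it. By the 1.5-fold rule 3 of them were higher and 0 lower, where 5.55% of all 12039 clusters with at least 20 counts were higher and 4.57% lower.

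In RSA 285 features were at or above the limit of 600 TPM and in mock 267, of which 34 were so in RSA only and 16 in mock only. Of these 50, 6 were in clusters that differed 2-fold or more, 2 of the RSA-only ones and 4 of the mock-only ones. The other 44 had a median of 556 TPM (276 to 598) in their lower library. Just inside the limit, TRINITY_DN13399_c2_g12, of 204 nt, had 716 TPM in RSA and 607 TPM in mock from 17 counts in RSA and 19 in mock, and TRINITY_DN11277_c0_g2, of 709 nt, had 607 TPM in RSA and 610 TPM in mock from 3786 counts in RSA and 4082 in mock. Just outside it, TRINITY_DN4904_c0_g1 had 605 TPM in RSA and 598 TPM in mock, and TRINITY_DN7330_c0_g2 had 606 TPM in RSA and 596 TPM in mock. The counting interval of TRINITY_DN13399_c2_g12 reached from 356 to 925 TPM in mock, so depth does not place it on either side of the limit. No interval is given here for the other features named at the limit, so their side of it is not taken as settled either.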

How the data were processed

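Per the file headers, the deposited tables are RSEM gene-level output for features of a TRINITY assembly, and the submitters' processing notes name Trimmomatic, Bowtie2 and RSEM 1.2.0. The sources used here state neither settings nor strand, nor which reads were assembled. The authors deposited an expected count, an estimated number that need not be whole, and a TPM value per feature, with length and effective length in nt. FPKM was not used. Expected counts were rounded to whole numbers. Ratios of RSA over mock used TMM sizes (edgeR 4.0.16, R 4.3.3), which set the RSA library to 0.939 of the mock library, and exact conditional binomial (Clopper-Pearson) intervals. Intervals on TPM are exact Poisson intervals of the count times the TPM of 1 count. No model was fitted across features and no p-value is given.

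Counts were simulated with Poisson error for all 45338 features. The 1.5-fold rule found 56 of 67 simulated 2-fold changes, 62 of 63 at 4-fold and 69 of 69 at 8-fold. Among changed features 0 calls were in the wrong direction, and 230 of 14795 unchanged features were called. The simulation held no spread between cultures, no error in scaling and no division of reads between features, so these rates leave such errors out.

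The members and lists were chosen with earlier results of these data known. Named features were the 10 with the highest geometric mean TPM, the 2 highest and 2 lowest ratios, the longest, the shortest and 2 on each side of the limit. Others are said to be chosen after their values were seen. Lists of genes by function were planned but not analysed here. Alternatives used DESeq2 1.42.0 size factors, upper quartile and library totals, other limits and summed clusters. Calculations used matplotlib 3.10.9, scipy 1.17.1, pandas 2.3.3 and numpy 2.4.6 under Python 3.11.15.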

Additional observations from a re-analysis of the deposited data

How the results depend on the processing

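The main values were recomputed 51 times, and 18 of the results were close to them (counts within 1.5-fold, ratios, lengths and shares of TPM within 1.1-fold, other percentages within the 95% interval, the correlation within 0.01) and 33 moved; the causes were not tested, except that looser or stricter limits take in more or fewer features. The number of features was 490 at 300 TPM, 149 at 1000 TPM and 109 with at least 200 nt of effective length in both libraries. Their share of TPM, 44.5% in RSA and 42.0% in mock, was 55.9% in RSA and 52.6% in mock at 300 TPM, 36.0% in RSA and 33.8% in mock at 1000 TPM, and 16.9% in RSA and 16.0% in mock with at least 200 nt, and their share of counts was 23.4% in RSA and 24.3% in mock. CPM of 600 or more gave 265 features, of which 98 were among the 251. Full-length division gave 243, of which 144 were among the 251. Both were counted as close by number alone, so this does not show that the same features were kept. Leaving out the cluster rule had to give 251, since that rule removed 0 features. The median ratio, 0.987, stayed below 1 under every other scaling of the counts run (0.926 under library totals, 0.946 under DESeq2, 0.970 under upper quartile, 0.985 under TMM without the 251); it was above 1 for TPM plus 1 (1.037, scaling and effective length changed together), for counts summed over clusters (1.024) and with at least 200 nt (1.027). Past 1.5-fold, 5 higher and 5 lower, library totals gave 1 higher and 9 lower, DESeq2 3 higher and 8 lower, TPM plus 1 gave 7 higher and 1 lower, clusters 3 higher and 0 lower, and at least 200 nt 2 higher and 0 lower. With the limit midway between equality and 1.5-fold 13 were higher and 13 lower, and with 2-fold 0 were higher and 1 lower. The median effective length was 128 nt against a length of 398 nt. The percent with 2 or more transcripts was 26.6% for features alone in their cluster. With a tolerance of 0.05, 47.8% of counts were whole in RSA and 52.2% in mock. The correlation was 0.998 on log2(CPM + 1). Over all features, a minimum of 1 count gave 4.12% higher and 5.43% lower, and a minimum of 100 counts 6.22% higher and 3.51% lower. No paired analysis was possible because each condition has 1 library, and leaving out a replicate was not possible for the same reason. Full-length division and the limit of 200 nt on shares, ratios, calls and the correlation were added after seeing the data.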

Other observations

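Some of the 251 features lie in different clusters of the same wider read partition, the part of the identifier before the cluster number. This held for 4 partitions, noticed after the values were seen. In TRINITY_DN9965 there were 3 single-feature clusters, and each was among the 251 at a similar level. TRINITY_DN9965_c0_g1, of 1684 nt, had 922 TPM in RSA and 941 TPM in mock. TRINITY_DN9965_c1_g1, of 1094 nt, had 794 TPM in RSA and 793 TPM in mock. TRINITY_DN9965_c2_g1, of 732 nt, had 792 TPM in RSA and 823 TPM in mock. Their scaled count ratios were 0.980, 0.999 and 0.955 in that order. Whether they are pieces of 1 transcript was not tested.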
